A study of Homo sapiens with 6 samples.

Results

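The endoplasmic reticulum (ER) chaperones and XBP1, 10 genes of the 16279 in the tables of the series, were followed in 12Z cells. They were listed by name, as classic targets of the unfolded protein response together with its transcription factor XBP1, and no measured value enters the rule, though earlier results of these data were known when the list was made. They are HSPA5, HSP90B1, CALR, CANX, PDIA4, PDIA6, DNAJB9, XBP1, SDF2L1 and HERPUD1, and all 10 passed edgeR's filter on low counts, which kept 13311 genes. 12Z is an established cell line labelled as endometrial epithelial cells and derived from endometriosis. One group of libraries came from untreated 12Z cells (Control, n = 3) and the other from 12Z cells given 10 ng/mL rhChem157S for 48 h (n = 3). rhChem157S is a recombinant human form of chemerin, an adipokine that acts through the receptors CMKLR1 and CMKLR2. Every library is from this 1 line, and nothing in the labels describes a vehicle for the Control cells.

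Most proteins that a cell secretes or places in its membranes are folded in the ER. HSPA5 (BiP) binds unfolded chains there with the help of J-domain proteins such as DNAJB9. HSP90B1 (GRP94) takes later folding intermediates, CALR and CANX hold glycoproteins through their sugar chains, and the protein disulfide isomerases PDIA4 and PDIA6 make and rearrange disulfide bonds. When unfolded proteins build up, the sensors IRE1 (ERN1), ATF6 and PERK (EIF2AK3) start the unfolded protein response. IRE1 splices XBP1 mRNA so that it encodes an active transcription factor, and XBP1 and ATF6 raise ER chaperone genes. HERPUD1 works in the degradation of ER proteins, and SDF2L1 is a partner of HSPA5 and its J-domain proteins. The counts were summed over each whole gene, so spliced and unspliced XBP1 mRNA cannot be told apart here.

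Many promoters of such genes hold the ER stress response element (ERSE), a pair of boxes of which NF-Y is known to bind CCAAT and ATF6 CCACG. The element was described from ER chaperone promoters, so its presence in them is background and not a result of these cells. Windows of 250 bases before to 50 bases after each annotated start, from RefSeq on GRCh38.p14, were searched on both strands, and all 10 genes matched a window by symbol. The ERSE was written as CCAAT, any 9 bases and CCACG, the ERSE-II as ATTGG, any 1 base and CCACG, and the core of the XBP1 element as TGACGTGG. An exact ERSE lay in a window of 6 of the 10 genes, against 0.0769% of all 35116 windows and 0.149% of the 10716 tested genes with a window. The sequences are shown because these boxes are what the 6 genes have in common. Each is read 5′ to 3′ on the strand on which the element reads CCAAT first, with the fixed letters of the element in capitals.
HSPA5: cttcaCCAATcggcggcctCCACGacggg
HSP90B1 upstream copy: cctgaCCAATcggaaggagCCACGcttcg
HSP90B1 downstream copy: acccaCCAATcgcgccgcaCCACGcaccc
CALR: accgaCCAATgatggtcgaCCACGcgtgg
CANX: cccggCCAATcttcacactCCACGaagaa
PDIA6: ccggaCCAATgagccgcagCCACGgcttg
XBP1: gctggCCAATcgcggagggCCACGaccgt
The HSPA5 stretch is chr9:125241386-125241414 on the minus strand, and its element ends 48 bases before the start. The HSP90B1 copies are chr12:103930211-103930239 on the plus strand and chr12:103930316-103930344 on the minus strand, in a gene on the plus strand. The CALR stretch is chr19:12938379-12938407 on the minus strand of a plus-strand gene. The CANX stretch is chr5:179698773-179698801 on the plus strand, and CANX has several annotated starts around it. The PDIA6 stretch is chr2:10812848-10812876 and the XBP1 stretch chr22:28800598-28800626, both on the minus strand. HSP90B1 was the member with more than 1 exact ERSE.

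The other 4 genes had no exact ERSE in their windows. SDF2L1 and HERPUD1 held the ERSE-II, which 0.0541% of all windows and 0.131% of tested genes with a window held. The stretches are printed in the direction in which the element reads ATTGG first.
SDF2L1: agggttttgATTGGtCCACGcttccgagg
HERPUD1: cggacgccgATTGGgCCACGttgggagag
They are chr22:21642105-21642133 on the minus strand and chr16:56932016-56932044 on the plus strand, both genes being on the plus strand. PDIA4 and DNAJB9 held only the CCACG box, which is part of the ERSE and the ERSE-II and which 38.1% of all windows held. The DNAJB9 window held it at the places shown, with CCACG in capitals.
DNAJB9 upstream box: aacaacagttttCCACGtgcgcgtagggc
DNAJB9 downstream box: gcttctgcctccCCACGtgatcccggcgc
These are chr7:108569788-108569816 on the plus strand and chr7:108569815-108569843 on the minus strand. None of the 10 genes had TGACGTGG in a window, against 0.729% of all windows. A match describes letters in a window and not binding, and a missing match says only that these letters are not there. In the account below the genes are ordered by role and the printed elements are referred back to.

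Between 35430881 and 38341643 reads were counted per library. The 10 genes together took 0.326%, 0.383% and 0.420% of the counts in Control replicates 1 to 3 and 0.393%, 0.479% and 0.514% in rhChem157S replicates 1 to 3. The groups overlapped in this share, since Control replicate 3 lay above rhChem157S replicate 1. rhChem157S replicate 3 stood apart from its group: its TMM scaling factor was 0.898, against 1.00 and 0.973 in the other rhChem157S libraries and 1.04 to 1.05 in the Control libraries. It was the highest of the 6 libraries in 5 of the 10 genes, and Control replicate 1 was the lowest in 6. The keratins KRT8, KRT18 and KRT19, which mark epithelium, were between 277 and 966 FPKM. The epithelial adhesion markers EPCAM and CDH1 reached no more than 0.807 and 0.381 FPKM. The other epithelial markers, KRT7 and MUC1, were at 1.19 to 2.01 and 6.79 to 14.4 FPKM. Of the stromal markers, COL1A1 and COL3A1 were at 728 to 1165 and 271 to 764 FPKM. THY1 (45.5 to 59.5), DCN (10.9 to 37.1), PDGFRB (5.52 to 21.2) and PDGFRA (1.37 to 3.10 FPKM) were lower. High and low markers thus occurred in both lists, so RNA levels alone did not single out an epithelial identity. By immunoblot the paper detected E-cadherin (CDH1) and MUC1 in this line and read them as epithelial markers. The stromal markers summed to 1499 to 1942 FPKM in Control and 1066 to 2042 in rhChem157S, with rhChem157S replicate 3 lowest, and the epithelial markers to 1596 to 1866 and 1760 to 1976. The immune markers summed to 122 to 171 FPKM in Control and 92.7 to 136 in rhChem157S, nearly all from CD68 and CD14, while the leukocyte marker PTPRC and the endothelial marker PECAM1 reached no more than 0.0535 and 0.0386 FPKM. Of the 17 markers tested edgeR called 0, and DESeq2 called PDGFRA higher and MUC1, CD14 and VWF lower with rhChem157S. The part of these marker differences in the results below was not tested. In bulk RNA, fewer cells with a transcript and less of it per cell cannot be told apart.

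Levels are given as FPKM, the reads on a gene scaled by its length and by the reads counted in the library, as deposited. Differences are log2 fold changes of rhChem157S over Control from the counts after TMM scaling, which the FPKM do not carry. An FPKM ratio and a fold change can therefore differ by as much as some of the differences themselves. With counts scaled by library size only, HSPA5 was at 0.20 in place of 0.35 and CALR at 0.38 in place of 0.52. PDIA6 was then at 0.19 in place of 0.32, and HERPUD1 at -0.38 in place of -0.24. The median of the 10 genes was 0.16 in place of 0.30. In the Control cells CALR stood highest, with a mean of 563 ± 93.2 FPKM (SD, n = 3), and DNAJB9 lowest, with 5.94 ± 0.609 FPKM. HSP90B1 followed CALR at 287 ± 34.9 FPKM, and the Control ranges of CALR and HSP90B1 did not overlap. HSPA5 (133), CANX (121), PDIA4 (97.6) and PDIA6 (84.0 FPKM) came next, and each overlapped the next in this order over the Control libraries. XBP1 lay below PDIA6 without overlap, at 63.0 FPKM, and above HERPUD1 (22.4) and SDF2L1 (19.8 FPKM), which overlapped each other. By mean FPKM over all 6 libraries CALR stood at the 99.7th percentile of the genes that passed the filter on low counts and DNAJB9 at the 39.1st. Under rhChem157S the order differed in that CANX (164 FPKM) stood above HSPA5 (153 FPKM) and SDF2L1 (19.1 FPKM) above HERPUD1 (17.3 FPKM), and in both pairs the rhChem157S libraries overlapped.

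**Figure D1:**
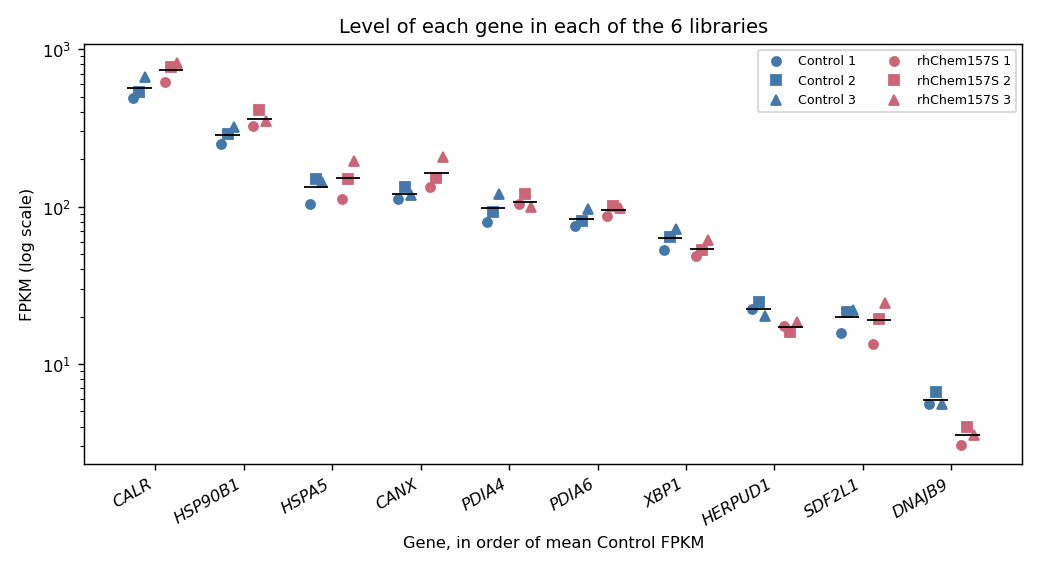
FPKM on a log axis (vertical) for each of the 10 genes (horizontal, ordered by mean Control FPKM), with 1 point per library, circles, squares and triangles for replicates 1, 2 and 3, and a bar at each group mean. CALR is highest in both groups and DNAJB9, whose rhChem157S points all lie below its Control points, is lowest.

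With the quasi-likelihood test of edgeR and Benjamini-Hochberg adjusted p-values over all 13311 genes, 0 of the 10 genes had an adjusted p under 0.05, as 4 of all genes tested did (0.0301%). At an unadjusted p under 0.05, 4 genes were higher with rhChem157S (HSP90B1, CALR, CANX and PDIA6), against 11.4% of all genes in that direction, and DNAJB9 was lower, against 11.4% in that direction. DESeq2, the tool of the original study, called 3 of the 10 at an adjusted p under 0.05. The study also required an absolute log2 fold change above 1, which none of the 10 genes reached. At the adjusted p alone, HSP90B1 and CANX rose by DESeq2, as 4.58% of all genes did, and DNAJB9 fell, as 6.0% did. In CPM after TMM scaling the groups did not overlap in HSP90B1 and CANX, which were higher in every rhChem157S library, as were 16.5% of all genes, and in DNAJB9, which was lower in every one, as were 16.0%. The median log2 fold change of the 10 genes was 0.30, with 7 higher and 3 lower, beside 0.01 over all genes tested, of which 51.7% were higher. It was 0.16 without rhChem157S replicate 3, 0.18 without Control replicate 1, 0.42 without Control replicate 3 and 0.16 with library size only. That median moved with abundance: it was 0.25 over the 542 tested genes with a mean above 100 FPKM, of which 84.1% were higher, 0.08 between 10 and 100 FPKM and -0.03 between 1 and 10 FPKM. HSPA5, HSP90B1, CALR, CANX and PDIA4 are among the genes above 100 FPKM, and the part of abundance in their values was not tested.

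**Figure D2:**
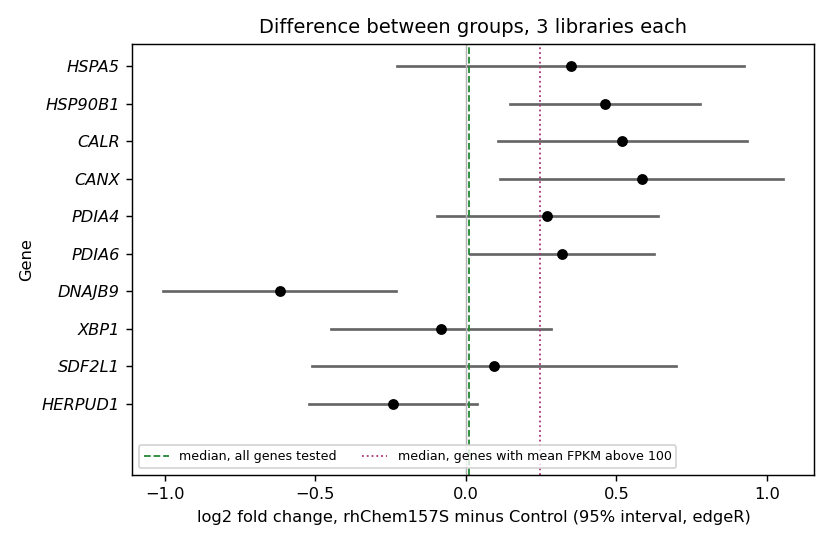
Log2 fold change of rhChem157S over Control (horizontal) for each gene (vertical), as points with 95% intervals from edgeR, and dashed and dotted lines at the median over all genes tested (0.01) and over genes above 100 FPKM (0.25). The intervals of HSP90B1, CALR, CANX and PDIA6 lie above 0 and that of DNAJB9 below it.

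Of the folding chaperones that act on any chain, HSPA5 (Entrez 3309, chr9:125234853-125241330, minus strand, GENCODE release 29 on GRCh38) varied the more between libraries and HSP90B1 (Entrez 7184, chr12:103930107-103953645, plus strand) was higher in every treated library. HSPA5 was at 105, 151 and 143 FPKM in Control replicates 1 to 3 and at 112, 149 and 196 FPKM in rhChem157S replicates 1 to 3. The groups overlapped, with rhChem157S replicate 1 below both of the higher Control libraries. Its log2 fold change was 0.35 ± 0.25 (SE), with a 95% interval from -0.23 to 0.92 and an edgeR adjusted p of 0.416. Without rhChem157S replicate 3 the log2 fold change was 0.07, so that library carried most of the difference. Without rhChem157S replicate 1 it was 0.54, with an edgeR adjusted p of 0.121 and a DESeq2 adjusted p of 0.0474. HSPA5 is the gene that is most often read as the gauge of the unfolded protein response.

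HSP90B1 was at 252, 288 and 321 FPKM in the Control libraries, against 326, 408 and 349 FPKM in the rhChem157S libraries. The groups did not overlap, though the highest Control library and the lowest rhChem157S library were close. The log2 fold change was 0.46 ± 0.14 (SE, 1.38-fold, 95% interval 0.15 to 0.78), with an adjusted p of 0.129 by edgeR and 0.0247 by DESeq2. The DESeq2 call was lost without Control replicate 1 (adjusted p = 0.163), Control replicate 2 (0.207) or rhChem157S replicate 2 (0.162). HSP90B1 is the gene with both ERSE copies printed above, and 226 of its 4695 exon bases overlap exons of genes on the opposite strand, C12orf73 among them. The strand setting of the counting was not given in the sources used here, so reads of such stretches cannot be assigned with certainty.

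The lectin chaperones CALR (Entrez 811, chr19:12938578-12944489, plus strand) and CANX (Entrez 821, chr5:179678628-179730925, plus strand) had the larger positive log2 fold changes among the 10 genes. CALR is soluble in the ER lumen and CANX sits in its membrane, and both hold glycoproteins that carry a single glucose. CALR was at 488, 534 and 668 FPKM in the Control libraries, against 619, 766 and 816 FPKM in the rhChem157S libraries. Control replicate 3 lay above rhChem157S replicate 1, so the groups overlapped. The log2 fold change of CALR was 0.52 ± 0.18 (SE, 1.43-fold, 95% interval 0.11 to 0.93), with an adjusted p of 0.158 by edgeR and 0.0501 by DESeq2. DESeq2 called it without Control replicate 3 (adjusted p = 0.0260) or without rhChem157S replicate 1 (0.00168).

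CANX was at 112, 133 and 118 FPKM in the Control libraries, against 133, 153 and 207 FPKM in the rhChem157S libraries. In FPKM, rhChem157S replicate 1 (132.6) lay just below Control replicate 2 (132.9), while after TMM scaling the groups stood apart at 560, 653 and 584 CPM against 687, 813 and 1196 CPM. Its log2 fold change was 0.58 ± 0.20 (SE, 1.5-fold, 95% interval 0.11 to 1.06), with an adjusted p of 0.159 by edgeR and 0.0494 by DESeq2. Without rhChem157S replicate 3 the log2 fold change was 0.32, with a DESeq2 adjusted p of 0.0332. The DESeq2 call was lost without rhChem157S replicate 2 (adjusted p = 0.108) and without any of the 3 Control libraries (0.175 to 0.229), and narrowly without the filter on low counts (0.0512). Opposite-strand exons cover 270 of 2714 exon bases of CALR and 150 of 6235 of CANX.

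The disulfide isomerases PDIA4 (Entrez 9601, chr7:149003062-149028641, minus strand) and PDIA6 (Entrez 10130, chr2:10783391-10837977, minus strand) had smaller positive log2 fold changes. PDIA4 was at 79.7, 92.1 and 121 FPKM in the Control libraries, against 104, 119 and 99.99 FPKM in the rhChem157S libraries. Control replicate 3 was the highest of the 6, and the groups overlapped. The log2 fold change was 0.27 ± 0.16 (SE, 95% interval -0.10 to 0.64), with an edgeR adjusted p of 0.3301. It was 0.15 without Control replicate 1, 0.46 without Control replicate 3 and 0.14 with library size only. DESeq2 called PDIA4 only in the fit without Control replicate 3 (adjusted p = 0.0334).

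PDIA6 was at 74.9, 80.7 and 96.5 FPKM in the Control libraries, against 86.5, 102 and 98.4 FPKM in the rhChem157S libraries. Here too Control replicate 3 lay within the rhChem157S range. Its log2 fold change was 0.32 ± 0.13 (SE, 95% interval 0.01 to 0.63), with an adjusted p of 0.206 by edgeR and 0.163 by DESeq2. DESeq2 called it only in the fit without rhChem157S replicate 1 (adjusted p = 0.0295). Of the 4101 exon bases of PDIA6, 1033 overlap exons of ATP6V1C2 on the other strand, the largest such share among the 10 genes.

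DNAJB9 (ERdj4, Entrez 4189, chr7:108569568-108574850, plus strand) was lower in every treated library, as was HERPUD1 in FPKM but not after TMM scaling. It encodes the J-domain protein that brings HSPA5 to IRE1 and to proteins bound for degradation, and it is a well known target of spliced XBP1. It was at 5.59, 6.64 and 5.59 FPKM in the Control libraries, against 3.06, 3.97 and 3.55 FPKM in the rhChem157S libraries. Behind these lie 477, 588 and 485 counts against 283, 347 and 320 counts. Every rhChem157S library was lower than every Control library, in FPKM and after TMM scaling. The log2 fold change was -0.62 ± 0.17 (SE, 0.652-fold, 95% interval -1.0 to -0.23), with an adjusted p of 0.117 by edgeR and 0.0144 by DESeq2. The DESeq2 call was lost without Control replicate 1 (adjusted p = 0.0651), 2 (0.223) or 3 (0.0691) and held without any of the rhChem157S libraries (0.00809 to 0.0343). Exons of PNPLA8 and THAP5 on the other strand overlap 183 of its 2837 exon bases.

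XBP1 (Entrez 7494, chr22:28794555-28800597, minus strand), the transcription factor of the set, was at 52.9, 64.3 and 71.7 FPKM in the Control libraries, against 48.2, 52.9 and 61.0 FPKM in the rhChem157S libraries. The groups overlapped widely. Its log2 fold change was -0.08 ± 0.16 (SE), with a 95% interval from -0.45 to 0.28 and an edgeR adjusted p of 0.772. Its sign changed to 0.02 without Control replicate 3 and to 0.01 without rhChem157S replicate 1. The interval holds both a small loss and a small gain of total XBP1 mRNA.

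SDF2L1 (Entrez 23753, chr22:21642261-21644298, plus strand) and HERPUD1 (Entrez 9709, chr16:56932048-56944863, plus strand), the pair with the ERSE-II, had log2 fold changes of opposite sign. SDF2L1 was at 15.8, 21.4 and 22.1 FPKM in the Control libraries, against 13.5, 19.4 and 24.3 FPKM in the rhChem157S libraries. The rhChem157S group held both the lowest and the highest of the 6 values. The log2 fold change was 0.09 ± 0.26 (SE, 95% interval -0.51 to 0.70, edgeR adjusted p = 0.847), and its sign turned with the scaling, to -0.05 with library size only. HERPUD1 was at 22.5, 24.6 and 20.2 FPKM in the Control libraries, against 17.4, 16.1 and 18.4 FPKM in the rhChem157S libraries. In FPKM every rhChem157S library was the lower, but after TMM scaling rhChem157S replicate 3 (58.6 CPM) lay above Control replicate 3 (55.1 CPM). The log2 fold change of HERPUD1 was -0.24 ± 0.12 (SE, 95% interval -0.52 to 0.04), with an adjusted p of 0.267 by edgeR and 0.256 by DESeq2. DESeq2 called it lower only in the fit without rhChem157S replicate 3 (adjusted p = 0.0290). The difference between the log2 fold changes of SDF2L1 and HERPUD1 was not tested.

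**Figure D3:**
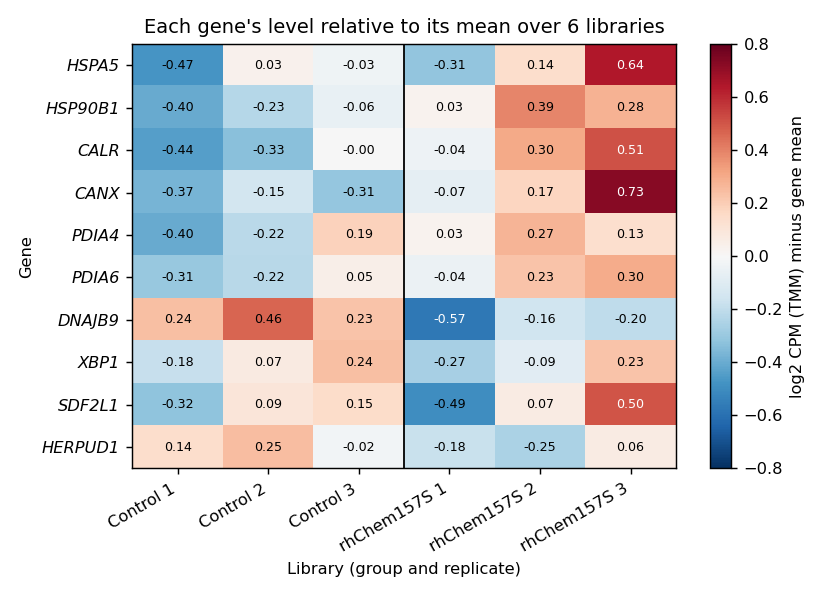
Log2 CPM after TMM scaling minus the mean of the gene over the 6 libraries (colour and printed number), with genes in rows, libraries in columns and a line between the groups. Control replicate 1 is lowest in the 6 chaperone and isomerase rows at the top, rhChem157S replicate 3 reaches 0.64 in HSPA5 and 0.73 in CANX, and DNAJB9 runs from 0.23 to 0.46 in Control and from -0.57 to -0.16 in rhChem157S.

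Within a group the genes did not keep a fixed ratio. HSPA5, CALR, CANX, PDIA6 and SDF2L1 had their highest log2 CPM in rhChem157S replicate 3. There they lay 0.64, 0.51, 0.73, 0.30 and 0.50 above their means. HSP90B1 and PDIA4 were instead highest in rhChem157S replicate 2, and in replicate 3 they lay 0.28 and 0.13 above their means. XBP1 was about as high in rhChem157S replicate 3 (0.23) as in Control replicate 3 (0.24). Over the 6 libraries the spread of the centred log2 CPM was widest in CANX (SD 0.40) and HSPA5 (0.39) and narrowest in HERPUD1 (0.19) and XBP1 (0.21).

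A ratio of 2 genes within a library does not depend on how the library is scaled. The ratios below were chosen after the values had been seen and carry no test. HSPA5 over DNAJB9, the chaperone over its J-domain partner, was 18.7, 22.7 and 25.6 in FPKM in the Control libraries, against 36.7, 37.6 and 55.1 in the rhChem157S libraries. CANX over DNAJB9 was 20.04, 20.02 and 21.1 against 43.3, 38.4 and 58.3. In both ratios the lowest treated library lay above the highest Control library. HSP90B1 over HERPUD1 was 11.2, 11.7 and 15.9 against 18.8, 25.4 and 18.9, and HSP90B1 over XBP1 was 4.75, 4.49 and 4.48 against 6.76, 7.72 and 5.71. These also stood apart, with the narrower gaps. CANX over CALR, the membrane lectin over the soluble one, was 0.229, 0.249 and 0.177 in Control and 0.214, 0.199 and 0.254 in rhChem157S, and there the groups overlapped. The ratios that stood apart set a gene with a positive log2 fold change over one with a negative one, so that their direction was fixed by the choice. They also set abundant against less abundant genes, and the part of abundance in them was not tested.

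**Figure D4:**
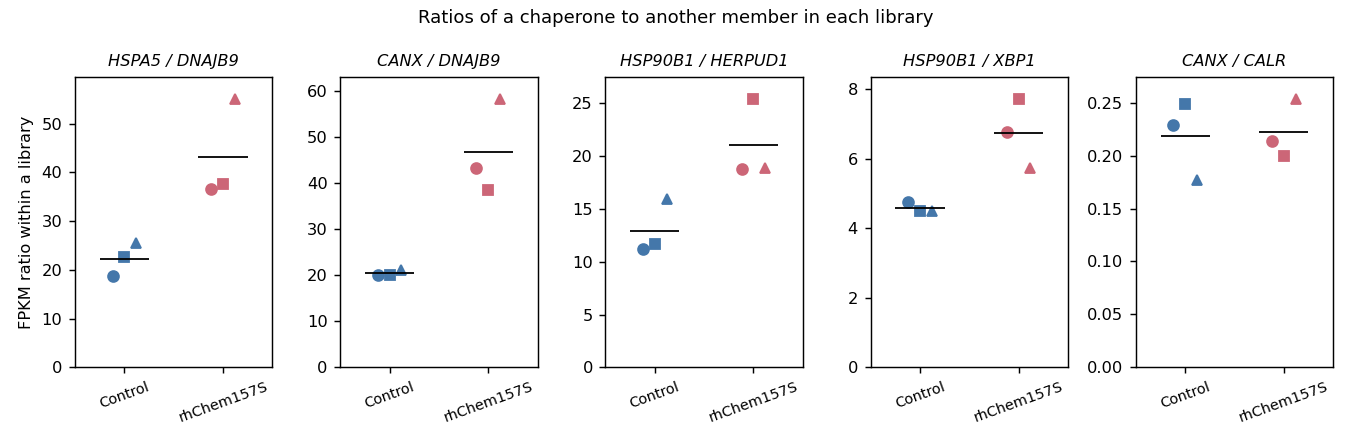
FPKM ratio within each library (vertical, from 0) for HSPA5 over DNAJB9, CANX over DNAJB9, HSP90B1 over HERPUD1, HSP90B1 over XBP1 and CANX over CALR, by group (horizontal), with 1 point per library, circles, squares and triangles for replicates 1, 2 and 3, and a bar at the mean. The 3 rhChem157S points lie above the 3 Control points in the panels with DNAJB9, HERPUD1 or XBP1 below the line, and the groups overlap in CANX over CALR.

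The wider folding and secretory machinery was read from 9 lists of other ER genes, 154 in all. With edgeR 0 of their 148 tested members had an adjusted p under 0.05. At an unadjusted p under 0.05, 24 were higher (16.2%) and 10 lower (6.76%), against 11.4% of all genes in each direction. DESeq2 called 13, of which 9 were higher (6.08%, against 4.58% of all genes) and 4 lower (2.7%, against 6.0%). Counts of genes higher in a list are to be read beside 51.7% higher over all genes tested and 84.1% over those above 100 FPKM. The median log2 fold change of other ER chaperones was 0.08, with 13 of 21 tested genes higher. HYOU1, the exchange factor of HSPA5 and also a gene with the ERSE-II, had the smallest p among those higher, with 47.4, 54.3 and 51.7 FPKM in Control against 51.7, 59.8 and 72.0 in rhChem157S and a log2 fold change of 0.40 ± 0.16 (SE, edgeR adjusted p = 0.198). CLGN, a relative of CANX, had it among those lower, with 5.32, 5.66 and 7.09 FPKM against 4.44, 4.04 and 3.90 and a log2 fold change of -0.42 ± 0.15 (edgeR adjusted p = 0.164). Neither was called by DESeq2.

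Other disulfide isomerases and oxidases had a median of 0.13, with 15 of 19 higher. DESeq2 called PDIA3, TXNDC5 and QSOX1, all higher, as 4.58% of all genes were. TXNDC5, a disulfide isomerase of the ER, was at 81.0, 81.5 and 91.8 FPKM in Control and 103, 120 and 112 in rhChem157S, a log2 fold change of 0.53 ± 0.11 (SE), with an adjusted p of 0.0774 by edgeR and 0.00107 by DESeq2. PDIA3, which works with CALR and CANX on glycoproteins, was at 114, 130 and 154 FPKM against 161, 193 and 182, a log2 fold change of 0.56 ± 0.14 (adjusted p of 0.108 by edgeR and 0.00907 by DESeq2). The groups did not overlap in either gene, which was higher in every rhChem157S library, as were 16.5% of all genes. ERO1B, an oxidase of the isomerases with an exact ERSE, was low throughout, at 0.671, 1.18 and 1.19 FPKM against 0.542, 0.829 and 0.425 (log2 fold change -0.64 ± 0.31, edgeR adjusted p = 0.269).

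The calnexin cycle enzymes trim and replace the glucose that CALR and CANX recognise, and DESeq2 called 3 of the 5 higher and 1 lower, against 4.58% and 6.0% of all genes. UGGT1, which puts the glucose back on misfolded glycoproteins, was at 14.2, 15.0 and 13.9 FPKM in Control and 17.0, 18.3 and 15.9 in rhChem157S, a log2 fold change of 0.38 ± 0.08 (SE, adjusted p of 0.0824 by edgeR and 0.00130 by DESeq2). GANAB and PRKCSH, the subunits of glucosidase II, were higher, with log2 fold changes of 0.34 and 0.29. Their DESeq2 adjusted p were 0.00763 and 0.00437. GANAB was at 169, 171 and 162 FPKM in Control against 211, 203 and 167.7 in rhChem157S. Its groups thus overlapped in FPKM, though not after TMM scaling. The median of the 5 enzymes was 0.29, and 0.16 with library size only. MOGS, glucosidase I, was lower, at 43.9, 45.7 and 47.3 FPKM against 35.2, 34.7 and 30.9, a log2 fold change of -0.31 ± 0.07 (adjusted p of 0.0959 by edgeR and 0.00408 by DESeq2). UGGT2, a relative of UGGT1, had a log2 fold change of -0.31 ± 0.14 (adjusted p of 0.234 by edgeR and 0.207 by DESeq2).

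The sensors and transducers of the unfolded protein response were balanced, with a median of 0.01 and 9 of 18 higher. ATF6B, a relative of ATF6, was at 29.5, 27.5 and 24.6 FPKM in Control and 35.4, 32.5 and 36.2 in rhChem157S, a log2 fold change of 0.48 ± 0.11 (SE, adjusted p of 0.0948 by edgeR and 0.00671 by DESeq2). TRIB3, a target of the PERK arm, was at 14.4, 16.0 and 17.3 FPKM against 10.8, 10.3 and 11.6, a log2 fold change of -0.41 ± 0.12 (0.126 and 0.0363). PPP1R15B, a subunit of the phosphatase that acts on eIF2α, was also called lower by DESeq2 (log2 fold change -0.29, adjusted p = 0.0353). ER-associated degradation had a median of 0.06 with 21 of 26 higher and no gene called by DESeq2, and that median was -0.08 with library size only. OS9, a lectin of that pathway, had a log2 fold change of 0.25 ± 0.09 (edgeR adjusted p = 0.174), and DERL3, at no more than 0.301 FPKM in any library, had -2.37 ± 0.70 (edgeR adjusted p = 0.133).

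Of the steps before and after folding, the oligosaccharyltransferase, which attaches the sugar chain, had a median of 0.16 (0.02 with library size only) with 10 of 12 subunits and partners higher, STT3A leading at 0.35 ± 0.11 (SE, edgeR adjusted p = 0.146) and TUSC3 on the lower side at -0.07 ± 0.08 (edgeR adjusted p = 0.608). The translocon and signal peptidase had a median of 0.15 with 14 of 17 higher, and the median was 0.04 without rhChem157S replicate 3 and 0.01 with library size only. SEC61G, a subunit of the translocon channel, was at 46.4, 52.7 and 52.6 FPKM against 56.3, 72.5 and 77.0, a log2 fold change of 0.58 ± 0.16 (adjusted p of 0.123 by edgeR and 0.0290 by DESeq2), and TRAM1 had -0.14 ± 0.13 (edgeR adjusted p = 0.538). ER exit and the KDEL receptors had a median of 0.13 with 13 of 18 higher. SEC24B, a coat protein of ER exit vesicles, had 0.30 ± 0.09 (adjusted p of 0.131 by edgeR and 0.0454 by DESeq2), and SAR1B, the small GTPase that starts the coat, -0.25 ± 0.08 (0.150 and 0.0629). ER calcium handling had a median of 0.07 with 7 of 12 higher, which turned to -0.08 without rhChem157S replicate 3 and to -0.07 with library size only. In that list CALU was at 0.26 ± 0.09 (edgeR adjusted p = 0.157) and STIM1, the calcium sensor of the ER, at -0.28 ± 0.08 (0.135 by edgeR and 0.0450 by DESeq2). Against library size only, the median of all genes moved from 0.01 to -0.12 and those of 6 of the 9 lists went from above 0 to below it, as given with the alternatives.

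**Figure D5:**
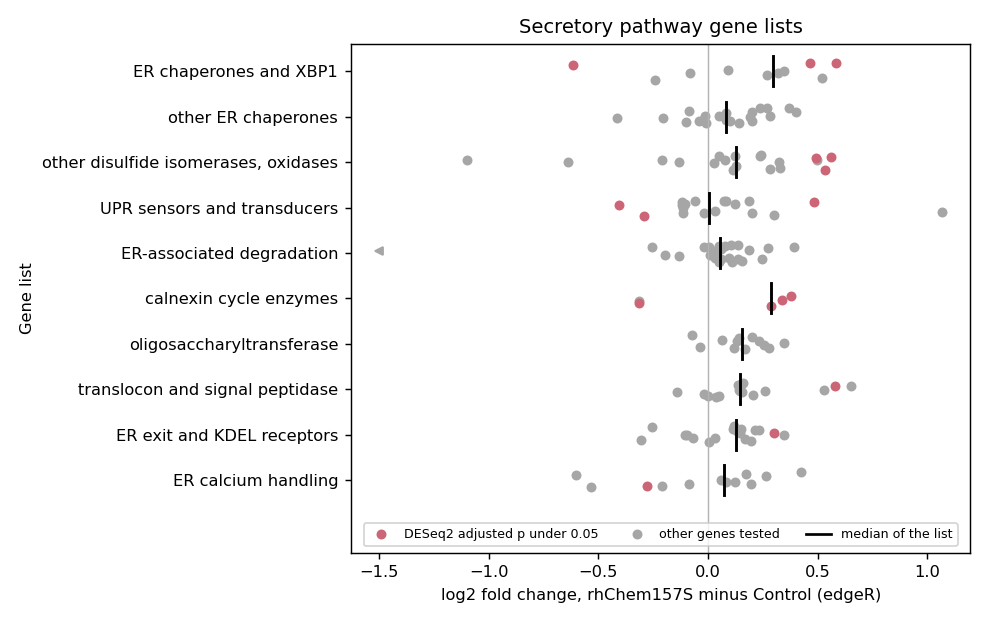
Log2 fold change of rhChem157S over Control (horizontal) for each tested gene of the 10 genes and of 9 lists of other ER genes (vertical), with genes called by DESeq2 in red, other genes in grey and the median of each list as a black bar. The medians run from 0.01 (sensors and transducers) to 0.30 (the 10 genes), and a triangle at the left edge stands for DERL3, whose value of -2.37 lies beyond the axis.

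The genes with the exact ERSE were read as a group as well. Of the 16 tested genes with the element, 6 are among the 10 described here. In these 6 the log2 fold changes were 0.35 (HSPA5), 0.46 (HSP90B1), 0.52 (CALR), 0.58 (CANX), 0.32 (PDIA6) and -0.08 (XBP1). The other 10 had a median of 0.01, with 5 higher and 5 lower. Their mean levels ran from 0.807 (ERO1B) to 37.5 FPKM (SERP1), against 58.5 (XBP1) to 648 FPKM (CALR) in the 6. The part of abundance in how these 10 differ from the 6 was not tested. DESeq2 called 2 of these 10, both lower, as 6.0% of all genes were: SYNPO (log2 fold change -0.80 ± 0.16, SE, adjusted p of 0.0762 by edgeR and 0.000444 by DESeq2) and TRIM5 (-0.64 ± 0.14, 0.0939 and 0.00366), named after their values were seen. The 12 tested genes with the ERSE-II outside the 10 had a median of 0.21, with 8 higher and 4 lower. Of these DESeq2 called GYS1 (adjusted p = 0.0451), NAV2 (0.0128), PLS3 (0.0150), RUVBL2 (0.000152) and SHCBP1 (0.00332), all higher, against 4.58% of all genes. Their edgeR adjusted p ran from 0.0752 to 0.139, and they too were named after their values were seen.

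The 5 genes whose centred log2 CPM over the 6 libraries lay nearest to that of HSPA5, of 11021 tested genes with a mean of at least 1 FPKM, were SEC14L2, NLE1, CORO1A, MGAT5 and SLC35E4. Their root mean square differences from HSPA5 were 0.0661, 0.0782, 0.0790, 0.0939 and 0.0956 on the log2 scale, with the other 9 ER genes left out of the search. MGAT5, a Golgi enzyme that branches N-linked sugar chains, was at 6.66, 8.28 and 8.76 FPKM in Control and 6.38, 9.88 and 12.4 in rhChem157S. With 6 libraries, such a likeness describes these libraries only.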

How the data were processed

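RNA of 12Z cells, untreated or given rhChem157S, was sequenced. Per the labels and the paper's methods, the authors trimmed reads with fastp, aligned them with HISAT2 to GRCh38.p13, counted them per gene with HTSeq-count and deposited raw read counts and FPKM. The strand setting and annotation release were not given in the sources used here. The counts went into edgeR 4.0.16 under R 4.3.3 (TMM, filterByExpr, quasi-likelihood test, Benjamini-Hochberg over all genes tested). Alternatives were other scalings, no filter, a replicate block, each library left out in turn, DESeq2 1.42.0, and limma 3.58.1 with log2 values of FPKM plus a pseudocount of 1 or 0.1. DESeq2 with each library left out and without the filter was added after seeing the data. The tests were checked on simulated counts, where DESeq2 made more false calls than edgeR or limma. With 3 libraries per group an exact permutation test cannot go below 0.10, and the labels call the libraries biological replicates, of 1 line. No 2 libraries were alike within sampling noise (lowest chi-square per degree of freedom 13.5). Totals of 35430881 to 38341643 make 1 count 0.0261 to 0.0282 CPM, which is the step of a single read and not a measure of error. The text names all 10 members, the gene of each list with the smallest p in each direction, the 5 genes most like HSPA5 and, chosen after their values were seen, PDIA3, QSOX1, GANAB, PRKCSH and PPP1R15B, which DESeq2 called, and UGGT2. Genes outside the 10 with the ERSE or ERSE-II that DESeq2 called were also named after their values were seen. The members and lists were chosen with earlier results of these data known. Exon overlaps came from GENCODE release 29 and promoter windows from RefSeq. Protein sequences were not used here.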

Additional observations from a re-analysis of the deposited data

How the results depend on the processing

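The number of the 10 genes called was 0 with edgeR under every planned setting, 3 with DESeq2 and 2 with DESeq2 without the filter. Over all genes DESeq2 called 1407, and 1319 without the filter. With a library left out DESeq2 called 0 to 6 of the 10 genes: 6 without rhChem157S replicate 1, 4 without rhChem157S replicate 3, 3 without Control replicate 3, 1 without rhChem157S replicate 2 and 0 otherwise. The share of all genes that DESeq2 called in these fits was not counted. In edgeR, omission of rhChem157S replicate 1 or 3 moved the calls over all genes from 4 to 844 or 415. The number whose groups did not overlap ran from 3 to 7 when a library was left out, with 7 without Control replicate 3 and 6 without rhChem157S replicate 1. The share of all genes was not counted in these fits, and smaller groups stand apart more readily, so these counts are not to be read as a result about the 10 genes. Of the genes in the 9 lists, DESeq2 called 13 and edgeR 0 to 7 with a library left out. The list genes called were 7 without rhChem157S replicate 1, beside 844 of all genes. They were 4 without rhChem157S replicate 3, beside 415 of all genes. These counts rose with those over all genes and are not to be read as a result about the lists. SDF2L1 turned negative with library size only (-0.053), limma on log2(FPKM + 1) (-0.073), limma on log2(FPKM + 0.1) (-0.077), and ran from -0.18 to 0.31 with a library left out, and with DESeq2 omission of Control replicate 1 gave -0.043 and of rhChem157S replicate 3 -0.18. XBP1 ran from -0.23 to 0.022 with a library left out, and DESeq2 gave 0.019 on omission of Control replicate 3 and also of rhChem157S replicate 1. The other 8 genes kept their direction in all 13 planned settings. With library size only, the median of other ER chaperones was -0.06, of disulfide isomerases and oxidases -0.0013, of sensors and transducers -0.12, of ER-associated degradation -0.08, of ER exit and KDEL receptors -0.0053 and of ER calcium handling -0.07. With the replicate number as a block, 0 of the 10 genes were called and their median was 0.30. Their median was 0.16 with library size only, 0.17 with limma at either pseudocount, and 0.16 to 0.42 with a library left out, lowest without rhChem157S replicate 3 and highest without Control replicate 3. Same-numbered libraries deviated together with correlations of 0.24, 0.00 and 0.25 across genes, against -0.31 to 0.11 for libraries of different number. These values do not settle whether the numbers pair the samples. The labels name no pairing, so the main test had none and the block was an alternative. The block lowered the SE of each of the 10 genes except HERPUD1. The block moved the genes called by edgeR from 4 to 1. Leaving out rhChem157S replicate 1 gave 844 and rhChem157S replicate 3 gave 415, while the other 4 fits gave 0.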
